A study of Mus musculus with 4 samples.

Results

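Lung cells with the transcripts of conventional dendritic cells type 1 (cDC1) were selected by a rule on 8 genes and described across 4 single-cell libraries. A cell was a member when it had at least 1 unique molecular identifier (UMI, 1 counted mRNA molecule) of Xcr1 or Clec9a, at least 1 of Irf8 and at least 5 of H2-Ab1. It also had to have no UMI of Fscn1, Cd3e, Cd79a or Marco. Among 27544 kept cells, 143 were members, which is 0.519% (0.438 to 0.611; all intervals are 95% intervals for counting error only).

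The mice were C57BL/6 with floxed Ift20 alleles. WT mice were Ift20 f/f, and KO mice also carried CD4 cre, which is active in developing T cells and is not meant to act in dendritic cells. Papain, a protease allergen, was given into the nose at 25 µg on 3 days in a row and again on day 14, and lungs were taken on day 15. The vehicle DPBS, a phosphate-buffered salt solution, served as the control. Live CD45.2+ 7-AAD- cells were sorted, so every leukocyte type of the lung entered, and 1 library was made for each pair of treatment and genotype (Papain KO, Papain WT, DPBS KO and DPBS WT). The number of mice in a library is not given in the sources used here. With 1 library a group there is no replicate check and no test between groups, and every difference below compares libraries, not mice.

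Conventional DCs take up antigen in the lung and carry it to T cells. The cDC1 subset depends on the transcription factors Irf8 and Batf3 and recognises dead cells through Clec9a. It senses double-stranded RNA through Tlr3 and presents antigen to CD8 T cells on MHC class I. Its chemokine receptor Xcr1 binds Xcl1 from NK and CD8 T cells. The cDC2 subset, in contrast, is better known for priming CD4 T cells in allergy. Mature DCs of both subsets make Fscn1 and Ccr7, so a rule that needs Fscn1 at 0 leaves most mature cells out.

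Under DPBS there were 25 members in WT and 30 in KO, and under papain 58 in WT and 30 in KO. They were deep cells, with medians of 16664, 19294, 17915 and 21234 UMIs, against library medians of 6114.5 to 6901.5 UMIs over all kept cells. Summed over members, the libraries held 467379, 571465, 1172751 and 639960 UMIs. No member barcode occurred in more than 1 library. A doublet caller marked 1, 3, 6 and 0 members.

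Of the 143 members, 80 had UMIs of both Xcr1 and Clec9a, 18 of Xcr1 alone and 45 of Clec9a alone. Entry was often narrow: 38 cells rested on a single UMI of the pair, 15 on a single Irf8 UMI, and 7 had 5 to 9 H2-Ab1 UMIs. Just outside, failing by 1 criterion, were 46 cells with under 5 H2-Ab1 UMIs, 18 with Irf8 at 0, 3 with Fscn1, 23 with Cd3e, 25 with Cd79a and 20 with Marco. All 3 Fscn1 cells were in Papain WT.

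The label was then checked against 15 cDC1 identity genes that the rule does not use. At least 8 of them were detected in 109 members, 4 to 7 in 21, and under 4 in 13. Some members carried markers of another type. In 10 members the 6 plasmacytoid DC genes summed to 86 to 279 UMIs, with 19 to 36 UMIs of Siglech, a receptor of those cells. These 10 had no Xcr1, 1 to 3 Clec9a UMIs and 1 to 4 identity genes. In a further 12 the 8 alveolar macrophage genes summed to 121 to 3274 UMIs, and 10 more had at least 10 UMIs of the interstitial macrophage genes. Of the 12, 7 also had 8 or more identity genes, and of the 10 with interstitial genes, 1 had.

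A marker check was therefore added after the data had been seen. It kept members with at least 8 identity genes, under 50 UMIs of the plasmacytoid and of the alveolar macrophage genes, and under 10 of the interstitial macrophage and of the neutrophil genes. It kept 100 members, namely 17 (WT) and 24 (KO) under DPBS and 37 (WT) and 22 (KO) under papain. Of these, 77 had both Xcr1 and Clec9a, against 3 of the 43 left out. The identity minimum alone, which was not adjusted for depth, left out 10 of the 43. The median number of identity genes was 12 in the kept and 5 in the left-out cells. These differences follow from the check, which used the identity genes. The name cDC1 is used for the 100 marker-checked cells, and the 143 are called members.

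**Figure D1:**
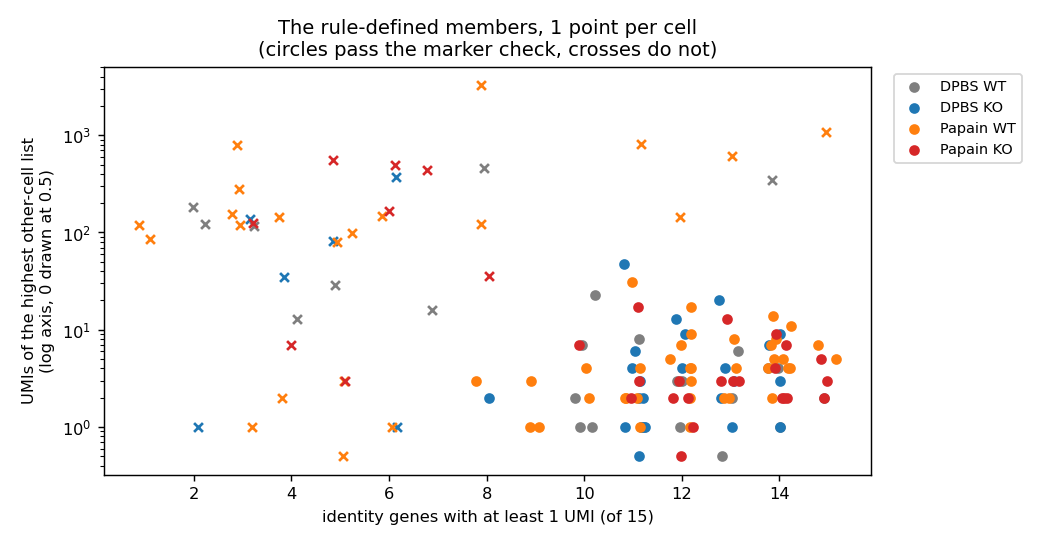
Each point is 1 of the 143 members, by the number of 15 identity genes detected (x axis, points spread sideways for sight) and the UMIs of the highest of 4 other-cell marker lists (y axis, log scale), coloured by library. Circles are the 100 marker-checked cells, which lie at 8 or more identity genes and under 50 UMIs, and crosses are the 43 others, with up to 3274 UMIs.

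Levels below are UMIs per 1e+06 UMIs, summed over the cells of a library (CPM), given for WT and then KO under DPBS, followed by WT and then KO under papain. In the marker-checked cells Xcr1 was at 158, 145, 198 and 188 CPM, Clec9a at 127, 166, 181 and 225 CPM, and Irf8 at 1386, 1135, 1440 and 1298 CPM. These genes chose the cells, so their levels are a description. Irf8 stood at 111 CPM in cDC2-like cells (Cd209a at 1 UMI or more and H2-Ab1 at 5 or more, with Xcr1, Clec9a, Fscn1, C1qa and the lymphocyte and macrophage genes of the rule at 0), where H2-Ab1 was as high as 12796 CPM.

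The targeted gene served as a check of the labels. In T cells (Cd3e at 1 UMI or more, H2-Ab1 under 5, Cd79a and Marco at 0) Ift20 was at 56.9, 22.6, 59.2 and 18.96 CPM. The T cell log2 ratio of KO to WT was thus -1.33 under DPBS (interval -1.53 to -1.14) and -1.64 under papain (interval -1.84 to -1.45). Marker-checked cDC1 had 43.4, 58.7, 52.4 and 47.9 CPM of Ift20. Their KO to WT ratios were 0.44 (-0.54 to 1.48) and -0.13 (-0.93 to 0.64), intervals that hold 0 and lie above the ratios in T cells. Over all members they were 0.60 and -0.24. The genotype labels thus matched the T cells. A loss of Ift20 was not detectable in cDC1 at a depth of 107 UMIs, where smaller changes could not be seen.

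Genes known for cDC1 were among those that set these cells apart. Against all other kept cells, the marker-checked cells were led by Gcsam, an adaptor of lymphocyte motility, at 78.3 CPM and 241-fold. It was followed by Nppc, A530099J19Rik, Xcr1 and Cd207 (langerin, a C-type lectin) at 187-fold. Nppc was found in only 1, 0, 6 and 1 marker-checked cells. Further genes with known roles were Snx22 at 157-fold, the adhesion molecule Cadm1 at 139-fold, the dead-cell receptor Timd4 at 59.7-fold, Tlr3 at 55.3-fold and the integrin Itgae (CD103) at 33.1-fold. Ckb, a creatine kinase, was the most abundant of the leading 20 at 1268 CPM and 32.7-fold. Of these 20 genes, 17 also led over all 143 members. The contrast used the same cells that the rule and the check had chosen, so it is a description.

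Against cDC2-like cells, Gcsam had no UMI in the 162 cDC2-like cells and Tlr3 was 151-fold higher. Hbb-bs, a haemoglobin gene, was 226-fold higher, at 90.8 against 0.402 CPM, and Plpp1 70.6-fold. The source of the haemoglobin UMIs was not tested. Cd207 was 33.3-fold, Cadm1 30.3-fold, Rab7b 19.8-fold, Itgae 13.1-fold and Ppt1, a lysosomal thioesterase, 11.3-fold higher. Batf3, in contrast, was shared. It stood at 139 CPM in the marker-checked cells and at 98.8 CPM in cDC2-like cells.

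After each cell was thinned to 3000 UMIs, Itgae was detected in 48.95% of the 143 members, 7.1% of cDC2-like cells and 0.256% of B cells. Without thinning, Itgae was found in 69.2%, 11.7% and 0.419%, in cells whose median depths were 19287, 15013.5 and 4471 UMIs. Cadm1 was found in 37.8%, 4.52% and 0.105% and Tlr3 in 16.1%, 0.645% and 0.165% of thinned cells (74.1%, 7.41% and 0.289%, and 50.3%, 1.23% and 0.361% unthinned). Naaa, a lysosomal amidase, was common but less particular, at 71.3%, 43.2% and 6.63% (87.4%, 78.4% and 12.04% unthinned).

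**Figure D2:**
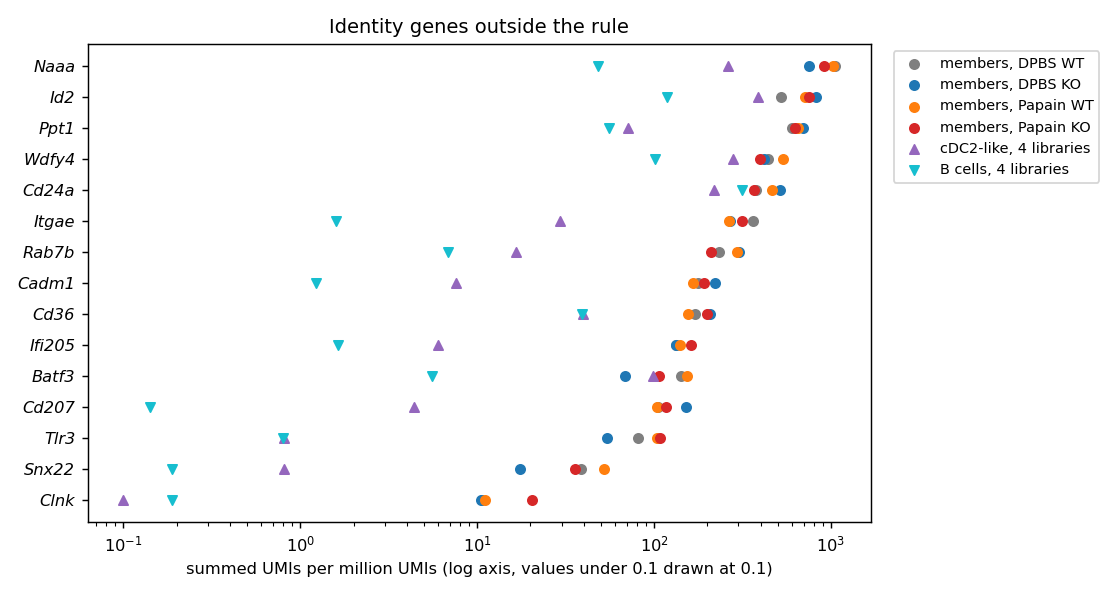
Levels of the 15 identity genes outside the rule (CPM, log axis) in the 143 members of each library (circles), in cDC2-like cells (triangles up) and in B cells (triangles down), with no error bars. Itgae, Cadm1, Ifi205, Cd207 and Tlr3 stand apart from cDC2-like cells in every library, while Batf3 in DPBS KO, at 68.2 CPM, lies below the 98.8 CPM of cDC2-like cells.

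The gene positions of the markers were taken from GENCODE M21 on GRCm38. Xcr1 lies on chr9:123852315-123862029 (minus strand), Clec9a on chr6:129408862-129424763 (plus) and Irf8 on chr8:120736358-120756694 (plus). Promoters, 250 bases before to 50 after each start, were read from RefSeq (GRCm38.p6) and searched on both strands. For the 15 identity genes, 11 had a promoter there. The AP-1 motif TGANTCA, a binding sequence of the Batf family, was in 1 of the 11 (Cd207) and in 8.97% of all genes with a promoter. The interferon response motif (GAAA and GAAA parted by any 2 bases), which factors of the Irf family bind, was in 1 of the 11 (Ifi205) and in 3.99% of all. The composite of both families (TTTC and TGANTCA parted by any 4 bases, so that it overlaps the AP-1 motif) was in none of the 11 and in 0.133% of all. Both matches are shown because these genes were over 30-fold higher than in cDC2-like cells, with the motif in capitals, for Cd207 at chr6:83677858-83677894 and for Ifi205 at chr1:174031850-174031919, both on the minus strand.
Cd207: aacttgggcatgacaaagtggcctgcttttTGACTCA
Ifi205: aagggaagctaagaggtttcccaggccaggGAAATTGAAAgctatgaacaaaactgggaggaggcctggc
A match of letters is a description of the sequence and does not show a bound site.

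Members were the most frequent in Papain WT. Under DPBS their share of kept cells was 0.307% (0.199 to 0.453) in WT and 0.526% (0.355 to 0.75) in KO. Under papain it was 0.726% (0.551 to 0.937) in WT and 0.526% (0.355 to 0.75) in KO. In WT the papain share was 2.36-fold the DPBS share (1.46 to 3.94), whereas in KO the fold was 1.0004 (0.583 to 1.72). KO over WT gave 1.71-fold (0.974 to 3.04) in DPBS and 0.725-fold (0.45 to 1.15) in papain, both with intervals that hold 1.

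Marker-checked cells were again least frequent in DPBS WT and most frequent in Papain WT, at 0.209%, 0.421%, 0.463% and 0.386%. Papain over DPBS was 2.22-fold (1.22 to 4.2) in WT and 0.917-fold (0.49 to 1.71) in KO, and KO over WT in DPBS was 2.02-fold (1.04 to 4.0). The 3 shares other than that of DPBS WT lie within each other's counting intervals. The difference between the responses of WT and KO was not tested.

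Other DCs were more frequent in Papain WT as well. The cDC2-like share was 0.43%, 0.561%, 0.863% and 0.456%, with 2.01-fold (1.32 to 3.11) for papain over DPBS in WT and 0.813-fold (0.465 to 1.41) in KO. Mature DC-like cells (Fscn1 and Ccr7 present) went from 6 to 24 cells in WT, 4.08-fold by share (1.62 to 12.2), and from 4 to 5 cells in KO. Among cDC1- and cDC2-like cells together, cDC1-like members made up 41.7%, 48.4%, 45.7% and 53.6%. Those intervals overlap, from 29.1% to 67.0%.

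**Figure D3:**
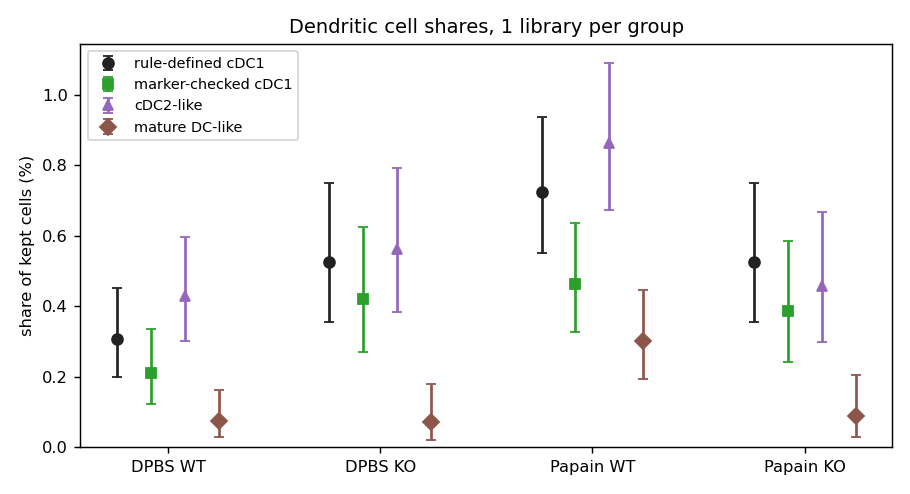
Share of kept cells (%, y axis) that were rule-defined cDC1-like, marker-checked cDC1, cDC2-like or mature DC-like in each of the 4 libraries, with exact binomial 95% intervals for counting error. The rule-defined share runs from 0.307% in DPBS WT to 0.726% in Papain WT and is 0.526% in both KO libraries.

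Gene levels were compared over the 3706 genes with at least 100 UMIs in the members, without the rule's genes. In DPBS, 59 genes were at least 2-fold higher in KO members (1.59%) and 155 lower (4.18%). In papain, 28 were higher in KO (0.756%) and 65 lower (1.75%). In WT, 78 were higher after papain (2.1%) and 35 lower (0.944%), and in KO 141 (3.8%) and 61 (1.65%). These splits differed in the marker-checked cells and under another scaling. Among the 2653 genes measured in the marker-checked cells, the counts were 56 against 60 for KO over WT in DPBS, 35 against 62 in papain, 84 against 53 for papain in WT and 62 against 56 in KO, and their median log2 ratios lay between -0.05 and 0.07. With TMM factors, which shift all ratios of all members by 0.19 for KO over WT in DPBS and by -0.13 for papain in KO, the first split moved from 27.6% to 51.0% higher and the last from 69.8% to 53.3%. In the marker-checked cells the same factors shifted these 2 ratios by 0.10 and -0.12 and moved the splits from 48.3% to 65.5% and from 52.5% to 33.0% higher. Each comparison shares a library with 2 of the other 3, so a gene that is low in Papain WT, for example, appears in 2 of them.

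Genes of other cell types filled part of the lists over all members. By the rule for named genes, which ranks genes by the bound of the ratio nearest 0, 64 were named, and 37 of them were also past 2-fold in the same direction, with an interval without 0, in the marker-checked cells. The lower genes in DPBS KO included Ly6d at a log2 ratio of -3.75 and Siglech at -2.38, both plasmacytoid DC genes. In the marker-checked cells Siglech had 1, 2, 6 and 9 UMIs and a ratio of 0.44 (-3.83 to 6.32). Plasmacytoid-marked members numbered 3 of 25, 1 of 30, 5 of 58 and 1 of 30. The complement gene C1qb, of interstitial macrophages, led the higher genes after papain in both genotypes, with no UMI under DPBS and 166 and 150 UMIs under papain from 6 and 3 members. The marker-checked cells held 2 C1qb UMIs. The summed interstitial macrophage genes were at 96.3, 243, 901 and 1205 CPM over all members but at 8.34 to 10.5 CPM in the marker-checked cells. The check limited the plasmacytoid and interstitial macrophage genes, so their low levels in the marker-checked cells follow from it. Ccl17 in DPBS moved from a ratio of 1.66 over all members to 0.34 (0.06 to 0.62). Here 1 left-out DPBS KO member held 323 Ccl17, 233 Ccl22 and 21 Ccr7 UMIs. It passed the limits on other-cell genes and was left out for having 6 identity genes, at a depth of 6407 UMIs.

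For this reason the gene groups are given for the marker-checked cells, with the value over all members where it differs. Basophil and mast cell genes were at 0 in every library (4 of 4). The plasmacytoid genes summed to 58.9 to 110.5 CPM, the alveolar macrophage genes to 135 to 277 CPM, the neutrophil genes to 4.2 to 14.6 CPM, the T cell genes to 9.3 to 39.9 CPM and the NK genes to 8.34 to 29.4 CPM, against 5264 to 6207 CPM for the identity genes. The marker check limited the plasmacytoid, macrophage and neutrophil genes and required identity genes, so those sums follow from it and are a description. Epithelial and stromal genes, which it did not limit, were at 103 to 211 CPM and B cell genes at 128 to 202 CPM. The part of this background in the results was not tested.

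MHC class I presentation was slightly lower in Papain KO. Of 12 measured genes, 11 were below 0 for KO over WT in papain, 7 with an interval below 0, at a median log2 ratio of -0.44. Over all 2653 genes, 12.6% had such an interval and the median was -0.05. Calr, a chaperone of the peptide-loading complex, was at 418, 499, 653 and 423 CPM, a ratio of -0.63 (-0.87 to -0.39). Its partner Tapbp was at 229, 275, 257 and 177 CPM, -0.54 (-0.92 to -0.16). The immunoproteasome gene Psmb8 was at 663, 655, 845 and 629 CPM, -0.43 (-0.63 to -0.23). Papain WT was thus the highest library for Calr and Psmb8, and Papain KO the lowest for Tapbp and Psmb8. The heavy chain H2-D1 was the exception, at 0.04 (-0.08 to 0.17), and none of the 12 reached 2-fold. Over all members 10 of 12 were below 0, at a median of -0.35. In DPBS the genes were split 6 to 6, at a median of 0.02.

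MHC class II genes were lower after papain in WT. Of 9 genes, 8 were below 0, 6 with an interval below 0, and the median was -0.36. Over all genes 10.6% had such an interval and the median was 0.07. The invariant chain Cd74, the most abundant, was at 35809, 35600, 27908 and 29297 CPM, with papain ratios of -0.36 (WT, -0.39 to -0.33) and -0.28 (KO, -0.31 to -0.25). H2-DMa, which helps load peptide onto class II, was at 1448, 1471, 1038 and 1463 CPM, so that only Papain WT stood apart, at -0.48 (-0.64 to -0.31). Ciita, the activator of class II genes, went the other way at 105, 92.3, 173 and 119 CPM, 0.72 (0.17 to 1.30). In KO 7 of 9 were below 0 after papain, at a median of -0.21. For KO over WT in papain 7 of 9 were above 0, at a median of 0.16. The counts were the same over all members, with medians of -0.39, -0.28 and 0.22. In cDC2-like cells Cd74 did not follow, with a ratio of 0.03 for papain in WT.

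Chemokine genes stood lower after papain than after DPBS in WT, among cells that the rule limits to Fscn1 at 0. All 6 measured chemokines were below 0 there with intervals below 0 (10.6% of all genes), at a median of -0.95 against 0.07 over all genes. Over all members 6 of 9 were below 0 at a median of -0.16. In KO 5 of 6 were below 0 after papain, 3 with an interval below 0 (9.99% of all genes), at a median of -0.36. Over all members the direction in KO was the other way, with 5 of 9 above 0 at a median of 0.72. Between the papain libraries the 6 chemokines were split 3 to 3 for KO over WT in the marker-checked cells. Ccl3, Ccl4 and Cxcl16 were lowest there in Papain KO rather than Papain WT. Ccl22, a ligand of Ccr4, was at 313, 237, 86.0 and 204 CPM, a ratio of -1.86 (-2.33 to -1.41) for papain in WT. Over all members that ratio was -0.45, and in cDC2-like cells 2.47. In Papain WT, 1 left-out member held 57 Ccl22 and 75 Ccr7 UMIs, with 3 identity genes. Another held 50 Ccl22 UMIs and 1078 UMIs of the alveolar macrophage genes. The marker-checked cells of that library held 69 Ccl22 UMIs, so the size of the ratio depended on the check. These cells with Ccl22 UMIs numbered 7, 13, 10 and 7 in the 4 libraries. Ccl17, the other Ccr4 ligand, was at 502, 634, 312 and 1336 CPM. For KO over WT in papain it was 4.29-fold higher, a log2 ratio of 2.10 (1.89 to 2.32), and 1.38 over all members. The Papain KO value rests on few cells: 311 of its 641 UMIs were in 1 of 12 cells with any, and without the cell with the most UMIs in each library the ratio was 1.52. In the same comparison cDC2-like cells had a ratio of -1.64, at 2689 CPM in the WT library and 863 CPM in the KO library. Mature DC-like cells had 3593 CPM of Ccl17 and B cells 10.0 CPM. For 2 of the 6 chemokines the papain ratio in WT turned without the top cell, from -0.69 to 0.09 for Ccl17 and from -0.32 to 1.83 for Ccl4, whose DPBS WT value was 156 UMIs of 186 in 1 cell.

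Costimulatory genes were also mostly lower after papain in WT. Cd83, which stabilises class II and Cd86 at the surface, was at 1376, 1318, 727 and 865 CPM. Its ratios for papain were -0.92 (-1.10 to -0.74) in WT and -0.61 (-0.79 to -0.43) in KO. Over the group, 5 of 7 genes were below 0 after papain in WT, 4 with an interval below 0. Past 2-fold were 2, Tnfsf9 (4-1BB ligand) at -1.24 (-1.93 to -0.55) and Icosl at -1.14 (-1.88 to -0.39). Over all 2653 genes, 2% were past 2-fold lower, 10.6% had an interval below 0 and the median was 0.07. Over all members Tnfsf9 was at -0.31 and Icosl at -0.78. The median of the group was -0.48, against -0.31 over all members. All 3 measured cytokine genes were below 0 as well, with intervals below 0 (10.6% of all genes). Il1b was at -0.99 (-1.26 to -0.72), Tnf at -1.03 (-1.59 to -0.46) and Tgfb1 at -0.55 (-0.94 to -0.15). Over all members they were at -0.23, -0.42 and -0.37. Il12b, the subunit shared by interleukin-12 and interleukin-23, had 7, 0, 6 and 0 UMIs in the marker-checked cells, too few for a comparison. Type I interferon and interferon gamma response genes were scarce, with 1 measured gene each.

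Cell cycle genes were higher after papain in WT. Of 14 genes, 13 were above 0, 11 with an interval above 0 and 8 past 2-fold, at a median log2 ratio of 1.08. Over all 2653 genes, 12.4% had an interval above 0, 3.17% were past 2-fold higher and the median was 0.07. Over all members 14 of 17 were above 0, with a median of 0.45. Mcm3, a subunit of the replicative helicase, was at 21.7, 65.0, 113 and 70.9 CPM, a ratio of 2.39 (1.29 to 3.74). Its UMIs were in 3 of 17, 6 of 24, 19 of 37 and 8 of 22 cells. Mcm5 was at 27.9, 39.9, 125 and 79.2 CPM, 2.16 (1.18 to 3.33), and Pcna, the sliding clamp, at 55.8, 92.3, 132 and 62.5 CPM, 1.24 (0.51 to 2.05). These replication genes were highest in Papain WT. The mitotic genes Mki67 and Top2a were not. Mki67 stood at 149, 96.5, 155 and 250.1 CPM and Top2a at 105, 94.4, 168 and 211 CPM, both highest in Papain KO.

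The number of dividing cells was small. At 3000 UMIs per cell, at least 3 cell cycle genes were detected in 2 of 17, 6 of 24, 14 of 37 and 6 of 22 marker-checked cells, which is 11.8% (1.46 to 36.4), 25% (9.77 to 46.7), 37.8% (22.5 to 55.2) and 27.3% (10.7 to 50.2). These intervals overlap. Over all members the shares were 12%, 23.3%, 25.9% and 20%, and in cDC2-like cells 9.09%, 10.3%, 13.4% and 23.1%. For KO over WT in papain, 10 of 14 genes were below 0 at a median of -0.49. The DPBS comparison depended on doublet calls: its median was -0.15 over all members and -1.13 over members not called doublets. In the marker-checked cells, with the 2 called cells included, it was 0.36.

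The list of immediate early and heat shock genes had opposite medians in the genotype comparisons, but the heat shock genes named below did not change direction. For KO over WT, 11 of 14 genes were below 0 in DPBS, at a median of -0.48 (-0.58 over all members), and 10 of 14 were above 0 in papain, at 0.55 (0.31 over all members). Dnajb1, an Hsp40 co-chaperone, was at 1655, 342, 959 and 469 CPM. In DPBS its ratio was -2.28 (-2.54 to -2.02). Hsph1, an Hsp110 chaperone, was at 552, 136, 698 and 277 CPM, -2.02 (-2.45 to -1.60). Hspa1b was at 1364, 399, 1483 and 1129.6 CPM, -1.77 (-2.03 to -1.53), and its near-identical neighbour Hspa1a at 4898, 2142, 3232 and 2882 CPM, -1.19 (-1.31 to -1.08). Reads of these 2 genes can be split unevenly between them. Bag3, the mitochondrial chaperonin Hspd1 and Dnaja1 were at -2.36, -1.64 and -1.29, with Dnaja1 at -0.80 over all members. Hsph1, Bag3, Hspd1 and Dnaja1 were not on the list and come from the ranking of genes in the marker-checked cells. In papain all 7 of these genes were lower in KO than in WT as well, Bag3 for example at -1.79 (-2.48 to -1.16). DPBS KO was the lowest library for all 7.

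Other cells showed the same direction in DPBS. In cDC2-like cells Dnajb1 was at -2.22, Hsph1 at -1.26, Hspa1b at -1.51, Bag3 at -1.25, Hspd1 at -0.66, Hspa1a at -1.81 and Dnaja1 at -0.42. Over all other kept cells the 7 ratios ran from -0.84 to -0.25. Among transcription factors of the immediate early response, Jun was at 967, 443, 754 and 1492 CPM, with ratios of -1.13 (-1.39 to -0.87) for KO over WT in DPBS and 0.98 (0.83 to 1.14) in papain. Fos was at 1420 to 1118 CPM in DPBS and at 982 and 2036 CPM in papain, with a ratio of 1.05 (0.91 to 1.19) in papain, 0.57 without the top cells. Papain KO was the highest library for both. With 1 library a group, the preparation of a library and its genotype cannot be told apart.

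The 7 heat shock genes came from the top of the ranking of genes lower in DPBS KO, a choice that favours a shared lowest library. Another heat shock gene, Hspb1, was at 31.0, 4.2, 140 and 2.1 CPM, lowest in Papain KO. The promoters of the 7 were searched for the heat shock element, the binding sequence of Hsf1. This element was written as GAA, TTC and GAA, each parted by any 2 bases. It was in 2 of 7 (Hspd1 and Hsph1) and in 0.662% of all genes with a promoter. The 7 were picked as heat shock genes, so their share is a description only. The Hspd1 promoter holds 2 overlapping matches, shown in capitals, at chr1:55088029-55088106 on the minus strand (GRCm38.p6).
Hspd1: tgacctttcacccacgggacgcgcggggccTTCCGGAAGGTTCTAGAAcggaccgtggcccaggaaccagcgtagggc
The 5 genes without a match lack these letters in this window only.

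**Figure D4:**
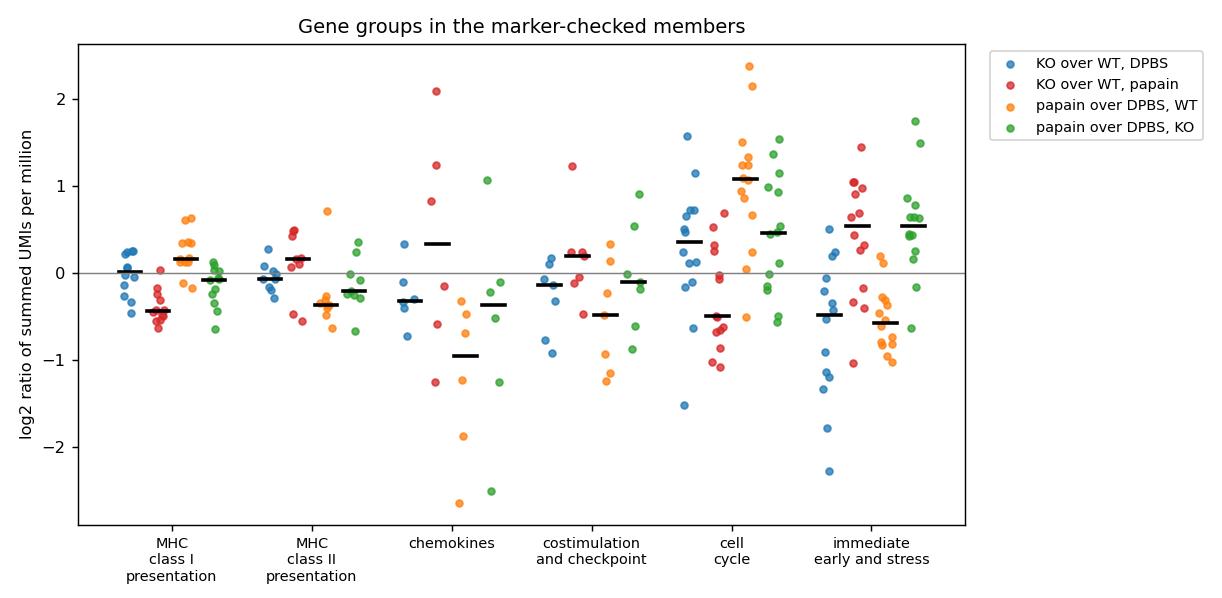
Log2 ratios of single genes (points) in 6 gene groups of the marker-checked cells for the 4 comparisons (colours), with the group's median as a black bar. Cell cycle genes for papain over DPBS in WT lie at a median of 1.08 and chemokines at -0.95, and immediate early and stress genes lie at -0.48 and 0.55 for KO over WT in DPBS and papain.

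Single genes were ranked in the same way in the marker-checked cells, after their values had been seen. In DPBS the genes higher in KO were led by Cd14, the lipopolysaccharide co-receptor, and Odc1, the first enzyme of polyamine synthesis. Cd14 was at 46.5, 357, 102 and 33.3 CPM, a ratio of 2.94 (2.18 to 3.81), and 1.21 over all members. Odc1 was at 155, 575, 438 and 167 CPM, 1.89 (1.45 to 2.36), and 2.01 over all members. Both genes were low in DPBS WT and Papain KO and higher in the other two libraries. Odc1 UMIs were spread over 10 of 17, 23 of 24, 37 of 37 and 17 of 22 cells, whereas 96 of 170 Cd14 UMIs of DPBS KO were in 1 cell. Without the top cells the Cd14 ratio was 3.22. Crem, a cAMP-responsive repressor, was at 49.6, 143, 74.8 and 43.8 CPM, 1.52 (0.72 to 2.41). Irf1, which is not among the leading 8, stood at 18.6, 83.9, 24.9 and 33.3 CPM, 2.17 (0.93 to 3.70).

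In papain the genes higher in KO than WT included Ccl17, Ccrl2, Cebpa, Socs3, Dusp1, Gadd45b and Nfkbia. Ccrl2, an atypical receptor of the attractant chemerin, was at 105, 58.7, 12.5 and 77.1 CPM, a ratio of 2.63 (bound nearest 0, 1.59) that was 0.17 over all members. The myeloid transcription factor Cebpa was at 146, 60.8, 24.9 and 115 CPM, 2.20 (1.44 to 3.02). Both genes were lowest in Papain WT, so that the papain ratios in WT were -3.08 (-4.26 to -2.03) and -2.55 (-3.38 to -1.76), against -0.40 and -1.31 over all members. Over all members Cebpa was at 1.36 for KO over WT in papain, and in cDC2-like cells its ratio was 0.62. Ltb4r1, a leukotriene B4 receptor, had the same pattern at 177, 157, 47.4 and 144 CPM, 1.60 (1.01 to 2.21) for KO over WT in papain and -1.90 (-2.53 to -1.28) for papain in WT. The feedback inhibitors Socs3 and Nfkbia were at 2.03 (1.30 to 2.79) and 1.30 (1.11 to 1.48) for KO over WT in papain. Over all members Nfkbia was at 0.72 and Gadd45b at 0.87, short of 2-fold.

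Some genes lower in Papain KO than in Papain WT came from few cells. Hspb1, at -6.07, and Nppc, at -5.63, rested on 8 and 6 cells of Papain WT, with 78 of 112 and 41 of 83 UMIs in 1 cell. Creld2, a protein of endoplasmic reticulum stress, was at 21.7, 62.9, 106 and 25.0 CPM, -2.08 (-3.09 to -1.20), and the metallothionein Mt1 at 732, 795, 590 and 215 CPM, -1.46 (-1.78 to -1.15). Over all members Mt1 was at -0.84, short of 2-fold, and Creld2 at -1.92. Mt1 was the more broadly detected, in 14, 24, 31 and 18 cells.

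After papain in WT, the other lower genes included the oxysterol receptor Gpr183, which guides DC positioning, at 146, 90.2, 38.6 and 75.0 CPM and -1.91 (-2.62 to -1.23). Axl, a receptor for apoptotic cells, was at 121, 75.5, 34.9 and 54.2 CPM, -1.79 (-2.55 to -1.05), and -0.53 over all members. The higher genes included the replication genes Lig1 at 3.79 (1.89 to 6.87, from 2 UMIs in DPBS WT, and 0.90 over all members) and Dut at 2.26 (1.28 to 3.42) beside Mcm3 and Mcm5. In KO the genes higher after papain were led by Jun at 1.75 (1.53 to 1.98), Hspa1b at 2.83-fold (log2 bounds 1.26 to 1.75), Txnip, Nfkbiz, Klf6, Ccnd2 and Mki67 at 1.37 (0.87 to 1.90). The lower genes there were led by Cd14 at -3.42 (-4.26 to -2.68), Ccl2, Mt1 at -1.89 (-2.22 to -1.57) and Odc1 at -1.79 (-2.16 to -1.42). Over all members Ccnd2 was at 0.77, Ccl2 at -0.35 and Mt1 at -0.91, each short of 2-fold.

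The identity genes, on which the marker check selected, had median ratios of -0.07, -0.10, 0.19 and 0.09 in the 4 comparisons, with single genes going both ways. There were 2 of 14 past 2-fold lower for KO over WT in DPBS, against 2.26% of all genes. For papain in KO 2 of 14 were past 2-fold higher, against 2.34%. Each of these comparisons had 7 intervals off 0. In DPBS 2 lay above and 5 below 0, against 8.1% and 6.63% of all genes. For papain in KO 5 lay above and 2 below 0, against 8.71% and 9.99%. The transcription factor Batf3 stood at 155, 75.5, 181 and 123 CPM, a ratio of -1.04 (-1.70 to -0.39) for KO over WT in DPBS and -1.05 over all members. The cytokine receptor Flt3, on which cDC numbers depend, was at 205, 159, 201 and 169 CPM and Zbtb46 at 46.5, 35.7, 61.1 and 47.9 CPM, with every interval of the ratios holding 0.

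**Figure D5:**
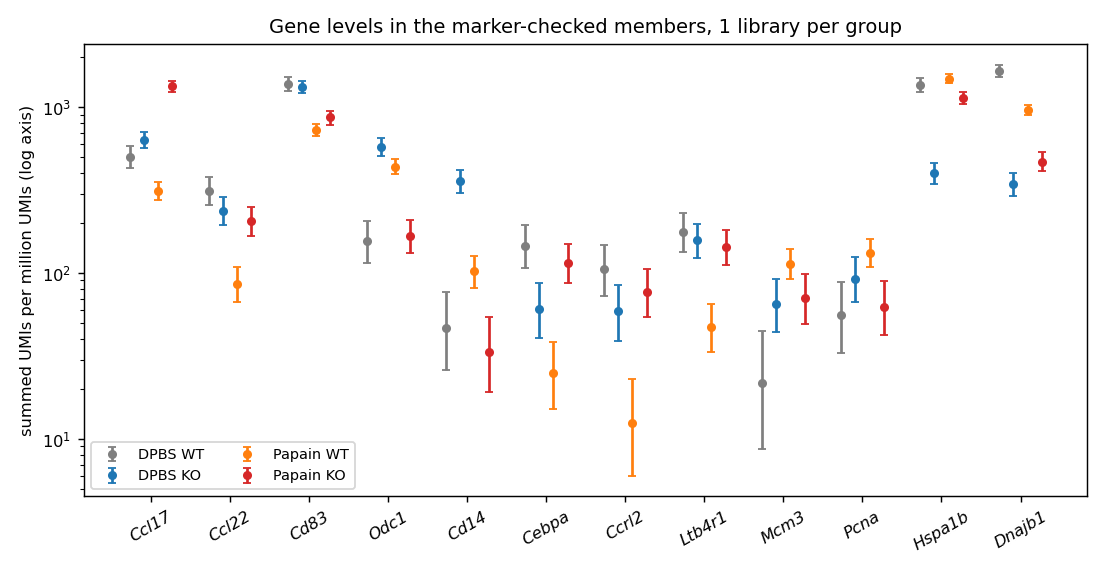
Levels of 12 genes named in the text in the marker-checked cells of each library (CPM, log axis), with exact Poisson 95% intervals for counting error. Ccl22, Cebpa, Ccrl2 and Ltb4r1 are lowest in Papain WT, Hspa1b and Dnajb1 are lowest in DPBS KO, and Ccl17 is highest in Papain KO at 1336 CPM.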

How the data were processed

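Single-cell 3′ v3 libraries (10x Genomics) of lung CD45.2+ 7-AAD- cells were processed by the authors with Cell Ranger (mm10 per the labels, software version 3.1.0 per the file headers). The deposited values are raw UMI counts per gene and called cell barcode, with no doublet removal stated. Total UMIs were 53854420 to 75675956 per library.

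Barcodes with more than 200 genes and under 15% mitochondrial UMIs were kept. Scrublet (scanpy 1.11.5) called doublets, which were left out only in an alternative. UMIs were summed over members per library and scaled to 1e+06. Exact Poisson intervals, conditional exact binomial intervals of ratios and exact binomial intervals of shares, all at 95%, were computed with scipy 1.17.1, numpy 2.4.6, pandas 2.3.3 and Python 3.11.15. They cover counting error only. A gene with at least 100 UMIs over the 4 libraries was measured, and 2-fold was the limit for a count. The interval method was checked on simulated Poisson counts, the model it assumes, so the check does not cover variation between cells. TMM factors came from edgeR 4.0.16 (R 4.3.3), and figures from matplotlib 3.10.9.

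The members and gene lists were chosen with earlier results of these data known. Named genes were the list genes, up to 8 genes a direction in each comparison (past 2-fold, with an interval without 0 that also held without the cell with the most UMIs in each library, ranked by the interval bound nearest 0), and the 20 genes highest over all other cells and over cDC2-like cells. Irf1 and the genes ranked in the marker-checked cells were named after their values were seen. A list's median sets a library at 0 to the floor of 3 counts. List genes without a matching symbol in the files (Gpr141b, Ifi30, Clec7a, Ift25 and Ift54) are not analysed here, and 1 further gene is not reported here. Alternatives changed the gate, the filters, the depth, the denominator, the scaling and the minimum count.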

Additional observations from a re-analysis of the deposited data

Results flagged for a closer look

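Among the genes ranked over all members, 6 reported here had KO to WT intervals on opposite sides of 0 in papain and in DPBS, both over all members and in the marker-checked cells. With 1 library a group, none of these differences was tested. The papain log2 ratio minus the DPBS log2 ratio was -1.82 for Cd14, -2.15 for Elmsan1, -1.87 for Ifitm2, -3.31 for Odc1 and -3.05 for Zmynd15, all higher in KO in DPBS and lower in KO in papain. It was 2.73 for Cebpa, lower in KO in DPBS and higher in papain. In the marker-checked cells the DPBS and papain ratios were 2.94 and -1.62 for Cd14, 1.41 and -1.09 for Elmsan1, 0.76 and -1.35 for Ifitm2, 1.89 and -1.39 for Odc1, 1.23 and -1.22 for Zmynd15 and -1.26 and 2.20 for Cebpa. The 6 genes were chosen for this pattern.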

How the results depend on the processing

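No paired analysis was possible because each group holds 1 library. No replicate was left out for the same reason. The marker check and TMM on marker-checked sums were added after seeing the data.

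Shares moved with the gate and with the denominator. They were 0.147%, 0.351%, 0.388% and 0.298% (DPBS WT, DPBS KO, Papain WT, Papain KO) when both Xcr1 and Clec9a were required, 0.553%, 0.754%, 1.13% and 0.947% with no limit on Cd3e, Cd79a or Marco, and 0.989%, 1.40%, 2.13% and 1.89% of cells without Cd3e and Cd79a. Applied to thinned cells the rule gave 0.143%, 0.242% and 0.365% in the first 3 libraries. In Papain KO the thinned share stayed within the interval of the reported share, 0.355% to 0.75%. Papain WT was at 0.525% with at least 2 UMIs of the pair and at 0.463% after the marker check. The 40 share ratios under these alternatives moved by less than their counting intervals.

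List medians were followed here only for the cDC1 identity, MHC class I, MHC class II, cell cycle and immediate early lists. They moved in 7 of 140 cases. For KO over WT in DPBS, MHC class II went to 0.25 with TMM, cell cycle to -1.13 without doublet calls and the immediate early list to -0.33 with at least 2 UMIs. For papain in KO, MHC class II went to -0.047 with at least 2 UMIs and cell cycle to 1.18 without doublet calls. The immediate early list went to 0.55 for KO over WT in papain after the marker check and to -0.30 for papain in WT with at least 2 UMIs. Chemokines, costimulation and cytokines were not among the 140 cases. With the marker check, chemokines moved from -0.16 to -0.95 for papain in WT and from 0.72 to -0.36 in KO. For papain in WT, cytokines moved from -0.40 to -0.99 and costimulation from -0.31 to -0.48.

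Counts of 2-fold genes followed the minimum, by construction. With 300, 30 and no minimum, higher and lower genes numbered 12 and 26, 293 and 830, and 633 and 1558 for KO over WT in DPBS, 5 and 13, 199 and 357, and 801 and 930 in papain, 10 and 2, 381 and 231, and 729 and 1137 for papain in WT, and 24 and 8, 775 and 242, and 1404 and 722 in KO. For KO over WT in DPBS, TMM gave 105 and 101, at least 2 UMIs 88 lower and the marker check 60 lower. KO over WT in papain had 44 higher without doublet calls. Papain in WT had 53 lower after the marker check, and papain in KO 65 higher with at least 2 UMIs and 62 after the marker check. The cause was not tested.

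Of 360 single gene values, 11 turned. With at least 2 UMIs these were Ly6d at 1.39 and Siglech at 1.85 (KO over WT, DPBS), Ccl3 at -1.88 and Ccr7 at 0.30 (KO over WT, papain) and Mmp12 at -1.77 (papain, WT). After the marker check they were Apoe at -0.15, Siglech at 0.44 and Fn1 at 0.44 (KO over WT, DPBS), Ccl3 at -0.58 (KO over WT, papain), Apoe at -0.58 (papain, WT) and Cxcl2 at -0.25 (papain, KO).

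With 17 to 37 marker-checked cells a library, a gene at 100 CPM rests on few UMIs, and 1 cell can carry a value.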
